A study of Arabidopsis thaliana with 26 samples.

Results

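The 38 genes described here had transcript levels far lower in mature leaves than in developing leaves of Arabidopsis thaliana at each of the 6 times sampled. They were chosen with these same values, by a rule on y, the log2 of the deposited intensity plus 4. The array is the Affymetrix ATH1 GeneChip, on which a probe set is a group of short oligonucleotides that reports on 1 transcript. Probe sets other than AFFX controls that were annotated to 1 gene were taken where the mature mean of y lay at least 2.5 below the mean of each of the 6 developing groups and where each developing mean was at least 6. Of 22746 probe sets, 76 met the level and difference conditions. Of these, 33 had no gene in the annotation and 5 of the 43 with a gene (AT5G33370, SPCH, AT5G45670, 3xHMG-box2 and AT1G62500) were left out by name, which gave 38 probe sets for 38 genes, out of 13350 genes with a probe set annotated to them alone. For the 38 genes the differences between mature and developing leaves are therefore given as a description, and their tests compare developing times with each other. Tests between mature and developing leaves are given for genes outside the 38.

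The mature group held 2 arrays of mature leaves at 24 h. The developing groups held 4 arrays each, of leaf insertions 19 to 21, at 2, 4, 12, 24, 48 and 96 h. All groups were of accession Col-0, stock N1092, grown in compost in a growth room under ambient CO2 and ambient light with a 10 h light period, and no group carried a mutation or another treatment. The labels give no insertion number for the mature leaves and do not say whether arrays came from separate plants, so p-values measure only the spread between these samples. The 26 arrays had median intensities between 40.7 and 46.98.

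A leaf grows first by cell division and later by cell expansion, during which the wall of each cell is loosened, extended and rebuilt. Enzymes that cut and rejoin wall polysaccharides, proteases secreted to the wall, and actin-nucleating formins are among the proteins known to act at the surface of growing plant cells. Once a leaf is mature, growth of its cells has largely ended. In a whole leaf, fewer cells of a type and less RNA per cell cannot be told apart.

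Across the 38 genes, y in mature leaves had a median of 4.56 (range 2.80 to 7.32), and the mean of the 6 developing means had a median of 8.002 (6.46 to 11.05). Mature leaves at 24 h lay below developing leaves at 24 h by 2.57 to 7.59 on the log2 scale, with a median difference of -3.38 against -0.15 over all 13648 probe sets tested. As a ratio of the values plus 4, the genes were 5.95- to 193-fold lower in mature leaves, with a median of 10.4-fold. In all 38 genes both mature arrays lay below all 24 developing arrays, which was also so for 25.3% of the probe sets tested, and the rule makes this likely for its own members. The space between the higher mature array and the lowest developing array was 1.06 to 5.87. Differences of all 38 genes between mature and developing leaves at 24 h passed an adjusted p of 0.05 as lower, as did 37.6% of the probe sets tested (61.7% passed in either direction), and nothing is read from that count because the rule used this contrast.

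**Figure D1:**
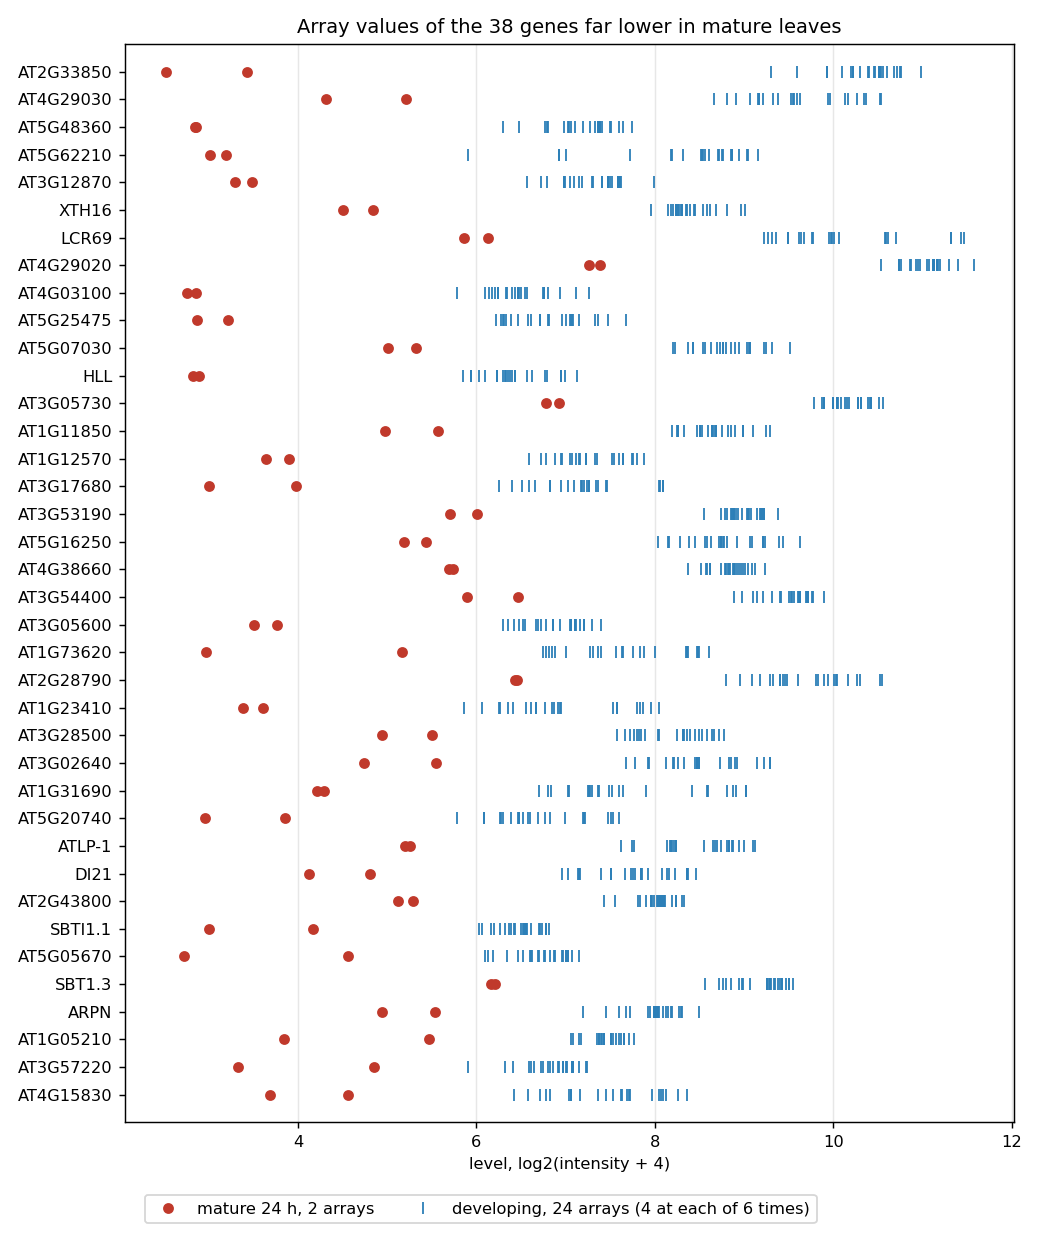
Level of each of the 38 genes, as log2(intensity + 4), on every array: red points are the 2 mature arrays and blue ticks the 24 developing arrays, with genes from the largest to the smallest distance between the mature mean and the lowest developing mean. Red points lie left of all blue ticks in every row, and the space between them runs from 5.87 for AT2G33850 to 1.06 for AT3G57220.

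AT2G33850 stood furthest apart. Its 2 mature arrays read 2.52 and 3.43, against 10.98, 10.53, 10.46 and 10.30 in developing leaves at 24 h. Its 24 developing arrays lay between 9.30 and 10.98, with a median of 10.46. It was 193-fold lower in mature leaves, but the mature intensities were only 1.72 and 6.79, so the pseudocount of 4 sets much of the size of that fold. Its mean stayed within 10.53 to 10.60 from 2 h to 24 h, was 10.18 at 48 h and 9.69 at 96 h.

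AT5G62210, whose protein resembles the embryo-specific protein 3 of Arabidopsis seeds, came next by the distance to the mean of all developing groups. It read 3.01 and 3.19 in mature leaves, against 8.18, 8.52, 8.87 and 9.04 in developing leaves at 24 h, a 46.9-fold difference. Its developing arrays ran from 5.91 to 9.15, and the lowest 4 of them were the 4 arrays at 12 h. AT4G29030 read 4.32 and 5.21 in mature leaves, against 9.55, 9.94, 9.96 and 9.07 in developing leaves at 24 h, a 29.1-fold difference. Among the annotated protein-coding genes it is the direct neighbour of AT4G29020, which encodes a glycine-rich protein. These were the only adjoining genes among the 38.

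AT4G29020 read 7.26 and 7.39 in mature leaves, against 11.57, 10.87, 11.12 and 11.40 in developing leaves at 24 h, a 15.1-fold difference. Both mature arrays were thus well above the level at which probe sets entered the tests (4.97), and the pseudocount adds little to intensities of 149.0 and 163.7. In 22 of the 38 genes the mature mean lay under the test level of 4.97, and in 9 genes both mature intensities were under 10. For those genes the size of the fold depends on the pseudocount, and the mature value is a low reading that has no detection call.

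The 2 mature arrays differed by a median of 0.31 in the 38 genes and by more than 1 in 5 of them. AT1G73620 read 2.97 and 5.16, AT5G05670 read 4.56 and 2.72, and AT1G05210 read 5.47 and 3.85. AT3G57220 read 4.85 and 3.33, and SBTI1.1 read 4.17 and 3.00. These 5 genes have the least certain mature level, and 2 of them, AT3G57220 and AT1G05210, also lay near the threshold. With mature replicate 1 alone 33 of the 38 genes lay at least 2.5 below every developing mean, and with mature replicate 2 alone 32 did. When the rule was applied without mature replicate 1 it took 39 genes, of which 27 lay at least 2.5 below every developing mean in the array that had been left out. Without mature replicate 2 it took 36 genes, and 27 again did so in the array left out. In both cases the array left out lay below all 24 developing arrays for every gene taken, 39 of 39 and 36 of 36. Both mature arrays lay below all 24 developing arrays in 25.3% of the probe sets tested. That is a stricter condition than for 1 array alone, for which no share was counted. The genes were taken with the same developing values, so nothing is read from these counts.

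Just inside the threshold, the mature mean lay below the lowest developing mean by 2.51 in AT4G15830, by 2.57 in AT3G57220 and by 2.58 in AT1G05210. Just outside it, the differences were -2.50 for AT3G20260 (which missed the threshold in the third decimal), -2.49 for AT4G02800 and -2.37 for AT3G63510. The members thus do not form a set with a clear edge. The 33 unannotated probe sets that met the same conditions lay 2.54 to 5.22 below the lowest developing mean (median difference -3.36) and are not described further.

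The roles given below are general background on each protein family and not measurements, and 22 of the 38 genes fall into a named group by them. Keyword classes could match only gene names, and most of the 38 genes have only a locus code as a name. Absence from a class therefore does not show that a role was absent. The cell wall class was the only one with a gene of the 38 (XTH16). That class had 86 probe sets, of which 49 passed the filter on low values. Between mature and developing leaves at 24 h 22 of the 48 other than XTH16 were lower and 7 higher, where 37.6% of all probe sets tested were lower and 24.1% higher. Between 96 h and 24 h in developing leaves 5 of the 49 were lower and 8 higher, where 8.84% of all probe sets tested were lower and 8.39% higher.

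Among 3 genes of wall polysaccharides, XTH16 (AT3G23730) encodes a xyloglucan endotransglucosylase/hydrolase, an enzyme that cuts and rejoins the xyloglucan chains between cellulose fibrils. It read 4.51 and 4.84 in mature leaves, against 8.27, 8.44, 8.23 and 8.20 in developing leaves at 24 h, a 12.2-fold difference. Its developing means moved little, between 8.18 and 8.66, and XTH16 was called in none of the 5 comparisons between 2 times, although the test among the 6 times passed (adjusted p = 0.0442 by limma). EXGT-A3 and XTH32, the other 2 genes found by the family name that passed the filter, did not follow it. EXGT-A3 averaged 8.97 in mature leaves and 8.20 in developing leaves at 24 h, and XTH32 averaged 9.28 in mature leaves and 9.38 in developing leaves at 24 h. Of the 10 measured genes found by the family name, 3 passed the filter.

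AT3G53190 belongs to the pectate lyase family, whose enzymes cleave pectin. It read 5.70 and 6.01 in mature leaves, against 9.18, 9.19, 9.06 and 8.85 in developing leaves at 24 h, a 9.26-fold difference, and its developing means lay between 8.82 and 9.24. AT5G20740 belongs to the family of invertase and pectin methylesterase inhibitors. It read 2.96 and 3.85 in mature leaves, against 6.48, 6.69, 6.82 and 6.46 in developing leaves at 24 h, a 9.23-fold difference. Its 4 arrays at 2 h (7.20 to 7.59) lay above those at 24 h, so AT5G20740 was high early in the series whereas AT3G53190 was not.

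The largest family among the 38 genes was that of thaumatin-like proteins, with 4 genes. These proteins take their name from a sweet-tasting plant protein, and many of them are counted among the pathogenesis-related proteins. The difference between mature and developing leaves at 24 h was -3.53 for AT1G73620, -3.31 for ATLP-1 (AT1G18250), -3.14 for AT4G38660 and -3.11 for AT2G28790. Except in AT1G73620, the 2 mature arrays of these genes were close, at 5.20 and 5.26 in ATLP-1, 5.74 and 5.70 in AT4G38660 and 6.45 and 6.43 in AT2G28790. AT2G28790 read 9.18, 9.81, 9.94 and 9.29 in developing leaves at 24 h, and AT1G73620 read 7.56, 7.63, 7.88 and 7.30. The corresponding arrays of ATLP-1 read 8.23, 8.81, 8.94 and 8.19, and those of AT4G38660 read 8.37, 8.94, 9.23 and 8.88.

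Other genes of the same family, listed with the 38 genes already known, gave a mixed picture. The family has 21 probe sets here, 8 passed the filter, and 4 of these 8 belong to the 38 genes. Of the other four, AT1G75800 (-0.39 ± 0.15 SE, adjusted p = 0.0243) and AT4G38670 were lower in mature leaves than in developing leaves at 24 h, AT4G36010 was higher by 1.95 ± 0.19, and AT5G24620 differed by 0.08 ± 0.21. OSM34, which codes for an osmotin-like protein, did not pass the filter, with means of 5.45 in mature leaves and 2.79 in developing leaves at 24 h. A far lower level in mature leaves was therefore seen in some genes of the family and not in others. These p-values are from limma with Benjamini-Hochberg adjustment.

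**Figure D2:**
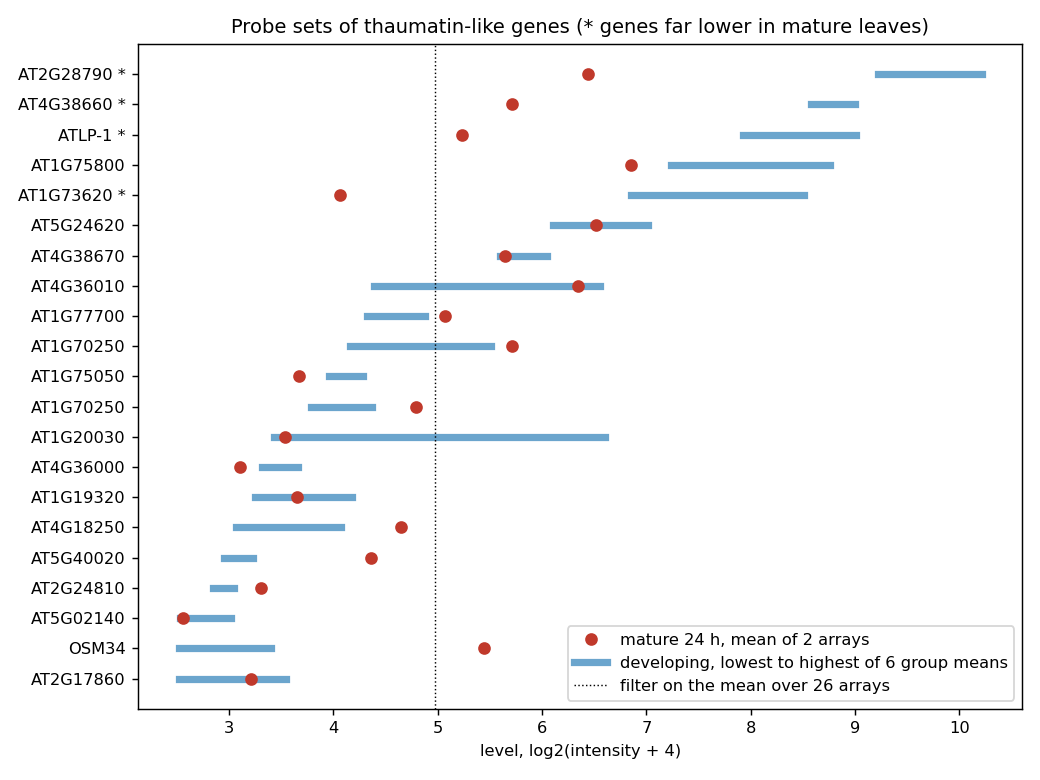
Level of the 21 probe sets of thaumatin-like genes, as log2(intensity + 4): red points are means of the 2 mature arrays, blue bars run from the lowest to the highest of the 6 developing means, and the dotted line is the filter level of 4.97. The 4 starred genes have red points far to the left of their bars, whereas OSM34 at 5.45 has its red point right of its bar.

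Among 2 genes for defensin-like proteins, which are small, cysteine-rich and secreted, LCR69 (AT2G02100, also called PDF2.2) read 6.13 and 5.86 in mature leaves, against 10.06, 9.95, 10.01 and 9.99 in developing leaves at 24 h, a 16.04-fold difference. AT3G05730 read 6.93 and 6.79 in mature leaves, against 10.56, 10.08, 10.42 and 10.43 in developing leaves at 24 h, an 11.4-fold difference. The mature arrays of both genes were close to each other. LCR68, a close relative of LCR69, was lower in mature leaves by a smaller amount, with means of 7.89 in mature leaves and 9.15 in developing leaves at 24 h (-1.26 ± 0.19 SE). Of 12 measured genes with LCR or PDF names, which do not include AT3G05730, 3 passed the filter. PDF1.2 was not called (-0.94 ± 0.80, adjusted p = 0.320 by limma).

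Proteases gave 4 of the 38 genes. AT5G07030 and AT3G54400 encode aspartyl proteases. AT5G07030 read 5.33 and 5.01 in mature leaves, against 8.37, 8.85, 8.69 and 8.73 in developing leaves at 24 h. AT3G54400 read 5.90 and 6.47 in mature leaves, against 9.90, 9.69, 9.60 and 9.76 in developing leaves at 24 h. Their levels were thus 11.2-fold and 11.8-fold lower in mature leaves.

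SBT1.3 (AT5G51750) and SBTI1.1 (AT1G01900) encode subtilases, serine proteases that in plants mostly act outside the cell. SBT1.3 read 6.16 and 6.21 in mature leaves, against 9.38, 9.34, 9.26 and 8.98 in developing leaves at 24 h, an 8.32-fold difference. SBTI1.1 had 6.55, 6.52, 6.57 and 6.72 in developing leaves at 24 h and was 8.02-fold lower in mature leaves, with the wide spread of mature arrays given above. Of 10 measured subtilase genes found by name, 4 passed the filter. The other two were SBT3.5, which was higher in mature leaves by 2.57 ± 0.28 SE, and S1P, which differed by -0.01 ± 0.18.

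Formins start and elongate actin filaments, and 2 formin genes were among the 38. AT5G48360 read 2.85 on both mature arrays, against 6.80, 7.39, 7.27 and 7.04 in developing leaves at 24 h, a 19.4-fold difference. AT2G43800 read 5.29 and 5.12 in mature leaves, against 7.83, 8.33, 8.10 and 7.95 in developing leaves at 24 h, a 7.19-fold difference. Both mature intensities of AT5G48360 were under 10, so its fold rests on the pseudocount. Of the 10 probe sets of formin genes 6 passed the filter, and of the 4 that are not members 3 were lower in mature leaves (AT3G32400, AT3G07540 and AT3G05470, by 0.67 to 1.59) and AT1G59910 was higher by 0.87 ± 0.16 SE.

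The 3 genes grouped as oxidoreductases or copper proteins were AT1G31690, AT1G12570 and ARPN. AT1G31690 encodes a copper amine oxidase, an enzyme class that oxidises polyamines and releases hydrogen peroxide. It read 4.21 and 4.29 in mature leaves, against 6.70, 7.30, 7.37 and 7.25 in developing leaves at 24 h. A second probe set of AT1G31690 averaged 2.68 in mature leaves and 4.96 in developing leaves at 24 h, a difference of -2.28 against -2.90 with the first, and its developing means did not reach the level of 6 at every time. No other gene of the 38 had a second probe set annotated to it alone.

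AT1G12570 encodes an oxidoreductase of the glucose-methanol-choline family. It read 3.64 and 3.89 in mature leaves, against 7.33, 7.88, 7.64 and 7.22 in developing leaves at 24 h, a 13.5-fold difference. ARPN (AT2G02850) encodes plantacyanin, a small copper protein of the extracellular matrix. It read 4.94 and 5.54 in mature leaves, against 8.04, 8.15, 7.996 and 7.19 in developing leaves at 24 h. It was among the flattest of the 38 genes over time, with developing means between 7.84 and 8.20.

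HLL (AT1G17560) encodes a ribosomal protein of the mitochondrion and takes its name from a mutant with arrested ovules. It read 2.82 and 2.89 in mature leaves, against 6.30, 6.56, 6.37 and 6.23 in developing leaves at 24 h, an 11.4-fold difference. AT1G23410, a fusion of ubiquitin with ribosomal protein S27a, read 3.61 and 3.38 in mature leaves, against 6.87, 6.91, 6.94 and 6.56 in developing leaves at 24 h. AT3G28500, for an acidic stalk protein of the large ribosomal subunit, read 5.50 and 4.94 in mature leaves, against 8.50, 8.64, 8.31 and 7.72 in developing leaves at 24 h. HLL and AT1G23410 had intensities under 10 on both mature arrays, and AT3G28500 did not. AT5G25475, which encodes a protein with a B3 DNA-binding domain, was the only gene of the 38 in the group for transcription. It read 2.87 and 3.21 in mature leaves, against 6.72, 6.81, 6.71 and 6.47 in developing leaves at 24 h, a 12.4-fold difference.

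The other 16 genes were placed in no group. Their mature means lay between 2.80 and 7.32, and their differences between mature and developing leaves at 24 h between -7.59 and -2.57. AT3G12870 read 3.30 and 3.48 in mature leaves, against 6.98, 7.59, 7.47 and 7.40 in developing leaves at 24 h, a 15.7-fold difference. AT3G17680, a gene of the KIP1-like family of actin-binding proteins, read 3.97 and 3.00 in mature leaves, against 7.26, 7.26, 7.34 and 7.21 in developing leaves at 24 h. Another 9 genes were 5.95- to 10.9-fold lower in mature leaves and comprised AT1G11850 (10.9-fold), AT5G16250 (10.5-fold), AT3G05600 (an alpha/beta hydrolase, 10.3-fold), AT3G02640 (9.77-fold), AT4G15830 (an ARM repeat protein, 9.06-fold), the drought-induced gene DI21 (AT4G15910, 8.88-fold), AT5G05670 (8.10-fold), AT1G05210 (7.37-fold) and AT3G57220 (5.95-fold).

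Within developing leaves, levels of 29 of the 38 genes (76.3%) differed among the 6 times by the moderated F-test, against 62.4% of the 13648 probe sets tested. All 38 genes had entered the tests, since the rule held each developing mean at 6 or more. The rule also set the mature mean at least 2.5 below every developing mean. A gene that came close to its mature level at any developing time therefore could not have been chosen. The distance between the lowest and the highest developing mean was 0.34 to 2.31, with a median of 0.83, and was thus smaller in every gene than its difference between mature and developing leaves at 24 h. AT5G62210 had the widest range. The genes with no call among the times were AT3G05730, AT1G11850, AT3G28500, AT2G43800, SBTI1.1, AT5G05670, ARPN, AT1G05210 and AT3G57220.

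Between 24 h and 96 h the levels of 16 of the 38 genes fell (42.1%) and 0 rose, in limma with Benjamini-Hochberg adjustment over all probe sets tested. Of the probe sets tested 8.84% were lower and 8.39% higher at 96 h. Among the 8313 probe sets with each developing mean at 6 or more the shares were 11.2% lower and 7.84% higher, so the members' share of lower calls lay above the background at a like level, and no test was made of the list. At an unadjusted p under 0.05, 23 of the 38 genes were lower and 0 higher. The share over all probe sets at that level was not counted, so nothing is read from the 23. The difference was below 0 in 34 of 38 genes and in 54.3% of all probe sets tested. The median was -0.38 in the 38 genes against -0.03 over all probe sets tested. The comparison of mature with developing leaves at 24 h uses the same 24 h arrays, so the directions of the 2 comparisons are not independent.

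AT2G33850 fell most, by 0.88 ± 0.16 (SE) on the log2 scale (adjusted p = 0.000328). Its 4 arrays at 96 h read 9.60, 9.92, 9.93 and 9.30, against 10.98, 10.53, 10.46 and 10.30 at 24 h. These did not overlap, which was so for 13 of the 38 genes (34.2%) and for 8.79% of the probe sets tested. AT3G17680 fell by 0.76 ± 0.14 (adjusted p = 0.00055), with 6.25, 6.66, 6.59 and 6.51 at 96 h, against 7.26, 7.26, 7.34 and 7.21 at 24 h.

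AT1G12570, the oxidoreductase gene, fell by 0.69 ± 0.17 (adjusted p = 0.00587) and AT4G15830 by 0.67 ± 0.15 (adjusted p = 0.00273). AT1G12570 read 6.72, 7.08, 6.94 and 6.58 at 96 h, against 7.33, 7.88, 7.64 and 7.22 at 24 h. AT4G15830 read 6.71, 6.82, 6.58 and 6.42 at 96 h, against 7.16, 7.45, 7.54 and 7.06 at 24 h. In both genes every array at 96 h lay below every array at 24 h.

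Of the thaumatin-like genes ATLP-1 fell by 0.62 ± 0.15 (adjusted p = 0.00458) and AT1G73620 by 0.74 ± 0.25 (adjusted p = 0.0408). The call of AT1G73620 was lost without any 1 of 7 arrays, 3 at 24 h and 4 at 96 h, with adjusted p up to 0.119. AT4G38660 (-0.27 ± 0.12) and AT2G28790 (-0.33 ± 0.18) were not called. LCR69 fell by 0.59 ± 0.11 (adjusted p = 0.00055), reading 9.26, 9.22, 9.67 and 9.49 at 96 h, against 10.06, 9.95, 10.01 and 9.99 at 24 h. The other defensin-like gene, AT3G05730, differed by -0.24 ± 0.13 and was not called.

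The subtilase gene SBT1.3 fell by 0.44 ± 0.09 (adjusted p = 0.00181), and the other 3 protease genes were not called, at -0.38 to -0.22. The formin gene AT5G48360 fell by 0.48 ± 0.15 (adjusted p = 0.0311), a call lost without any 1 of 4 arrays (24 h replicates 2 and 3, 96 h replicates 1 and 4), with adjusted p up to 0.139. AT1G23410 fell by 0.55 ± 0.14, AT3G02640 by 0.55 ± 0.14, AT3G05600 by 0.57 ± 0.14, AT5G16250 by 0.47 ± 0.13 and AT5G25475 by 0.37 ± 0.11, with adjusted p between 0.00698 and 0.0161. AT5G16250 read 8.15, 8.15, 8.58 and 8.03 at 96 h, against 8.45, 8.62, 8.80 and 8.92 at 24 h. AT3G02640 read 7.68, 7.77, 8.13 and 7.93 at 96 h, against 8.33, 8.45, 8.73 and 8.20 at 24 h. AT3G05600 read 6.30, 6.42, 6.52 and 6.48 at 96 h, against 7.21, 7.11, 7.16 and 6.54 at 24 h. The arrays of AT3G02640 and AT3G05600 did not overlap between the 2 times, and 1 array of AT5G16250 at 96 h lay within its range at 24 h. Without 24 h replicate 4 or 96 h replicate 4, AT5G16250 had an adjusted p of 0.0510 or 0.0531, and without 96 h replicate 1 or 24 h replicate 2, AT5G25475 had 0.0523 or 0.0552. AT4G29030 (-0.64 ± 0.22, adjusted p = 0.0493) and AT5G20740 (-0.48 ± 0.17, adjusted p = 0.0485) passed by so little that leaving out any 1 of 17 and of 16 of the 26 arrays ended the call, with adjusted p up to 0.162 and 0.169.

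**Figure D3:**
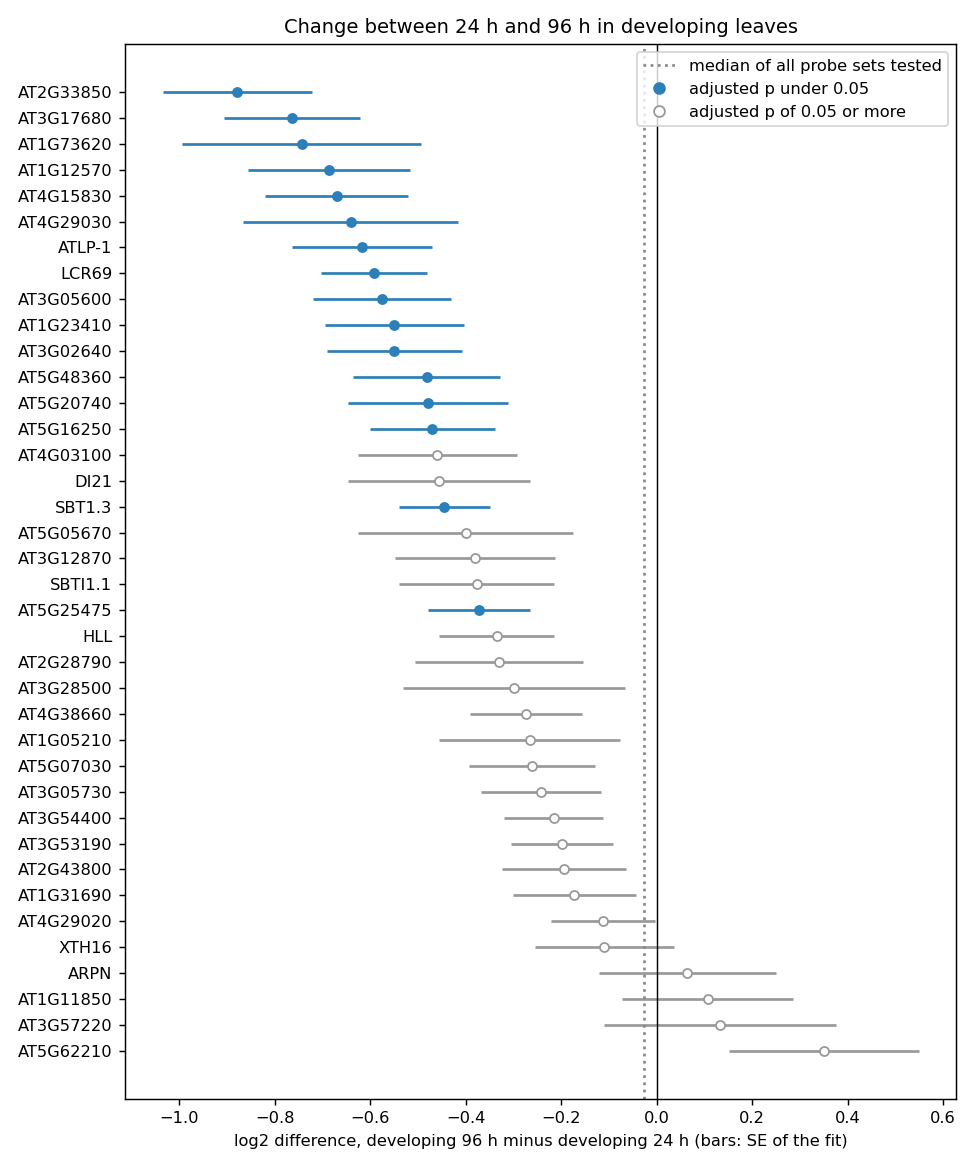
Difference in log2(intensity + 4) between 96 h and 24 h in developing leaves for the 38 genes, with 4 arrays at each time: points are the fitted differences, bars their standard errors, and filled points the 16 genes with an adjusted p under 0.05. Differences run from -0.88 for AT2G33850 to 0.35 for AT5G62210, and 34 of 38 points lie below 0 (solid line), most of them also left of the median of all probe sets tested (dotted line, -0.03).

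These falls covered a small part of the distance to the mature level. On the log2 scale, the change between 24 h and 96 h was -6.29% to 21.1% of the distance between the developing mean at 24 h and the mature mean, with a median of 10.9%. AT1G73620 and AT4G15830 had the highest share, both at 21.1%, followed by AT3G17680 at 20.2%. At 96 h all 38 genes still lay at least 2.51 above their mature mean, as the rule requires. AT5G62210 (0.35), AT3G57220 (0.13), AT1G11850 (0.11) and ARPN (0.06) had a positive difference between 96 h and 24 h, and none of these 4 was called.

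At 48 h, 0 of the 38 genes were called against 24 h, where 0.330% of the probe sets tested were. At an unadjusted p under 0.05, 9 genes were lower and 0 higher. Again there was no count over all probe sets, so nothing is read from the 9. LCR69 came nearest to a call, at -0.45 ± 0.11 (SE, adjusted p = 0.0686 by limma), with SBT1.3 next at -0.37 ± 0.09 (adjusted p = 0.0871). The mean at 48 h lay between those at 24 h and 96 h in 29 of 38 genes (76.3%), in the order 24 h above 48 h above 96 h, against 26.4% of the probe sets tested. In 29 genes the lowest developing mean was the one at 96 h, against 25.6% of the probe sets tested. These shares have no test, and all 3 times enter both of them.

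Some measures of the samples differed between the same times. Control probe sets at the 3 prime and 5 prime ends of a transcript give a log2 ratio that rises as RNA is degraded or copied incompletely. For ubiquitin this ratio averaged 1.17 ± 0.14 in the 4 arrays at 96 h, against 1.71 ± 0.11 in the 4 at 24 h (SD), with no overlap. For actin it was 1.53 ± 0.50 at 96 h and 2.14 ± 0.49 at 24 h. The actin ratio also differed within the first day, with 2.66 ± 0.15 at 2 h, 2.68 ± 0.11 at 4 h and 2.09 ± 0.37 at 12 h. In the 2 mature arrays the ratios averaged 1.28 ± 0.34 for ubiquitin and 1.60 ± 0.56 for actin, near those at 96 h. The ratio for GAPDH did not follow this order, with 0.45 ± 0.43 in mature leaves, and in developing leaves 0.15 ± 0.10 at 96 h and 0.38 ± 0.42 at 24 h. The ubiquitin ratio of each array was added as a covariate after the data were seen. With it, the 96 h comparison called 11 of the 38 genes lower and 0 higher. Of the 16 genes called without it, 6 lost their call, so the 11 are not all among those 16. In 3 of the 6 genes the fall was no smaller than without the covariate: -0.74 in AT1G12570 (-0.69 without), -0.60 in AT3G02640 (-0.55) and -0.39 in AT5G25475 (-0.37). In the other three it was smaller: -0.54 in AT4G29030 (-0.64 without), -0.48 in AT1G73620 (-0.74) and -0.36 in AT5G20740 (-0.48). With the actin ratio 14 were lower and 0 higher.

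Markers of dividing cells fell with the 16 genes. Only 2 of the 7 listed markers had a probe set, AUR1 and BUB3.1, and both were lower at 96 h than at 24 h (-0.46 and -0.55) and lower in mature than in developing leaves at 24 h (-1.89 and -1.10). Their summed intensity was 77.7 to 86.9 in mature leaves. In developing leaves it was 282 to 310 at 2 h, 346 to 419 at 4 h, 263 to 328 at 12 h, 238 to 278 at 24 h, 201 to 249 at 48 h and 155 to 201 at 96 h. The part of dividing cells in the falls of the 38 genes was not tested.

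Of the 7 genes listed for the stomatal lineage, 4 had a probe set (SPCH, STOMAGEN, MUTE and FMA). Their summed intensity was 120 to 141 in mature leaves and 452 to 534 in developing leaves at 24 h. STOMAGEN had the highest mean of them in developing leaves at 24 h (8.31), so the sum mostly follows that gene. The sum is therefore not read as an amount of stomatal lineage cells. The difference between mature and developing leaves at 24 h was -4.07 for SPCH and -1.98 for STOMAGEN. FMA was not called (-0.36 ± 0.20 SE, adjusted p = 0.133 by limma), and MUTE did not pass the filter. At 96 h the sum was 380 to 472, and none of the 3 that passed the filter was called between 96 h and 24 h. The 4 measured markers of leaf mesophyll, out of 5 listed, were all higher in mature than in developing leaves at 24 h, by 0.33 to 0.59. The samples labelled as mature leaves thus carried the markers of green leaf tissue. The only measured marker of the shoot meristem, CLV3, had intensities of 1.74 to 4.96 over all groups, and the only one of roots, PYK10, 3.60 to 52.4. No marker of the epidermis, trichomes, phloem, xylem or flowers had a probe set with 1 gene here.

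Within the first day the 38 genes did not move as one group. Under the 10 h light period, samples at 2, 4 and 12 h can differ in time of day from each other and from those at 24 h. Hours elapsed and time of day cannot be told apart in these comparisons. Between 2 h and 4 h 4 of the 38 genes rose (10.5%) and 0 fell, where 1.33% of the probe sets tested rose and 0.996% fell (2.32% in either direction). Among probe sets with each developing mean at 6 or more, 1.26% rose and 0.986% fell. LCR69 rose by 0.94 ± 0.11 (SE, adjusted p = 4.82e-06), with 10.62, 10.70, 10.58 and 10.59 at 4 h, against 9.97, 9.36, 9.76 and 9.64 at 2 h. AT1G31690 rose by 0.94 ± 0.13 (adjusted p = 4.07e-05), with 8.42, 8.81, 8.58 and 8.60 at 4 h, against 7.60, 7.90, 7.64 and 7.52 at 2 h. AT3G17680 rose by 0.91 ± 0.14 (adjusted p = 0.00021), with 8.10, 8.04, 8.09 and 8.05 at 4 h, against 7.24, 7.18, 7.17 and 7.03 at 2 h. In these 3 genes the arrays at 4 h did not overlap those at 2 h. AT5G16250 rose by 0.52 ± 0.13 (adjusted p = 0.0263), and leaving out any 1 of 5 arrays at these times ended its call, with adjusted p up to 0.110.

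Between 2 h and 12 h 15 of the 38 genes were called (39.5%), 9 lower and 6 higher, against 39.2% of the probe sets tested (18.6% lower and 20.6% higher). The share called was that of the array as a whole. LCR69 rose by 1.70 ± 0.11 (adjusted p = 3.28e-12), with 11.32, 11.32, 11.46 and 11.43 at 12 h. AT1G31690 rose by 1.29 ± 0.13 (adjusted p = 7.83e-09), with 9.02, 9.02, 8.87 and 8.91 at 12 h. The second probe set of AT1G31690 also stood higher at both times, by 0.77 at 4 h and 0.75 at 12 h. AT3G02640 rose by 0.70 ± 0.14, AT5G16250 by 0.63 ± 0.13, AT3G12870 by 0.59 ± 0.17 and AT5G25475 by 0.47 ± 0.11.

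The deepest fall between 2 h and 12 h was that of AT5G62210, by 1.89 ± 0.20 (adjusted p = 1.88e-08). It read 5.91, 7.01, 6.92 and 6.93 at 12 h, against 8.32, 8.75, 8.56 and 8.71 at 2 h, and the group means returned to 8.65 at 24 h. AT1G23410 fell by 1.46 ± 0.14 (adjusted p = 6.69e-09), with 6.67, 5.86, 6.27 and 6.61 at 12 h, against 7.58, 8.04, 7.84 and 7.80 at 2 h. AT5G20740, the pectin methylesterase inhibitor family gene, fell by 1.04 ± 0.17 (adjusted p = 1.53e-05).

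Smaller falls between 2 h and 12 h were called for both aspartyl protease genes, AT3G54400 (-0.59 ± 0.10) and AT5G07030 (-0.47 ± 0.13), and for HLL (-0.50 ± 0.12). AT2G28790 (-0.50 ± 0.18), AT3G05600 (-0.42 ± 0.14) and AT4G29020 (-0.33 ± 0.11) were called too. AT2G28790, AT3G05600 and AT4G29020 lost their call without any 1 of 4, 3 and 3 arrays, with adjusted p up to 0.103, 0.0702 and 0.0654.

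**Figure D4:**
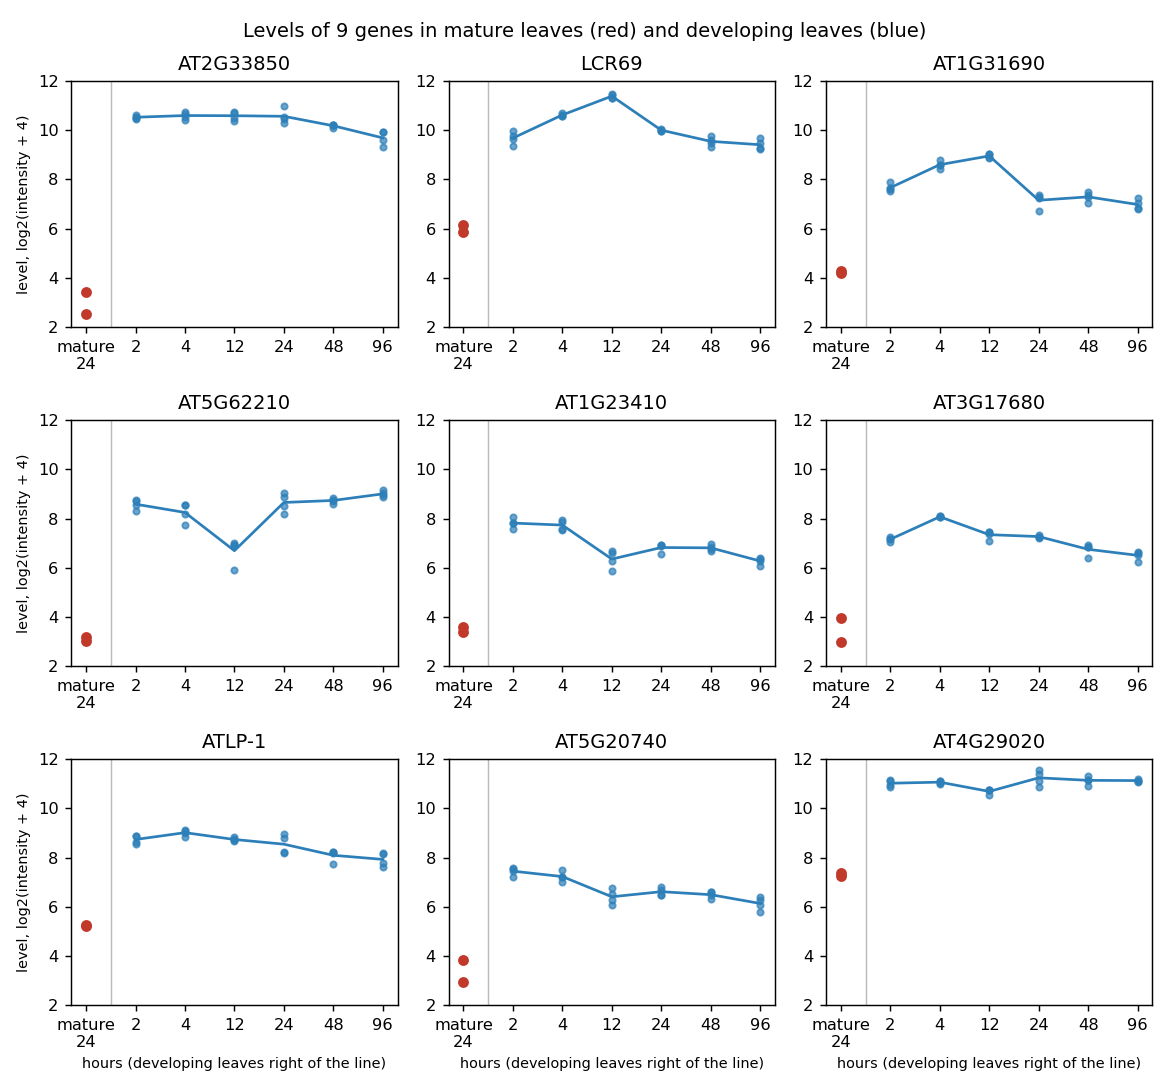
Level of 9 of the 38 genes, as log2(intensity + 4), in mature leaves at 24 h (red points, 2 arrays) and in developing leaves at 2, 4, 12, 24, 48 and 96 h (blue points, 4 arrays each, with a line through the means). LCR69 and AT1G31690 peak at 12 h with means of 11.39 and 8.96, AT5G62210 has its lowest mean at 12 h at 6.69, and AT2G33850 is flat up to 24 h and lower at 96 h.

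At 24 h, one day into the series, 8 of the 38 genes were called against 2 h (21.1%), 7 lower and 1 higher, against 20.9% of the probe sets tested (10.8% lower and 10.1% higher). AT1G23410 was lower by 0.99 ± 0.14 (adjusted p = 2.08e-05) and AT5G20740 by 0.83 ± 0.17 (adjusted p = 0.000815). AT2G28790 (-0.67 ± 0.18), AT5G07030 (-0.55 ± 0.13), HLL (-0.52 ± 0.12), AT1G31690 (-0.51 ± 0.13) and AT5G25475 (-0.32 ± 0.11) were lower as well. AT1G31690 and AT5G25475 were thus above their 2 h level at 12 h and below it at 24 h. LCR69 was the one gene called higher, by 0.32 ± 0.11 (adjusted p = 0.0391). Leaving out any 1 of 5 arrays ended that call, with adjusted p up to 0.198, and AT5G25475 lost its call without any 1 of 3 arrays, with adjusted p up to 0.116.

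The 38 genes thus had their highest developing mean at different times, at 2 h in 12 genes, 4 h in 10, 12 h in 11, 24 h in 3, 48 h in 1 and 96 h in 1. AT5G62210 was the one with its highest mean at 96 h (9.001 ± 0.12 SD, n = 4), and AT1G11850 the one with its highest mean at 48 h (8.90 ± 0.30). The lowest mean fell at 96 h in 29 genes, and otherwise at 4 h in 2, 12 h in 4, 24 h in 2 and 48 h in 1.

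**Figure D5:**
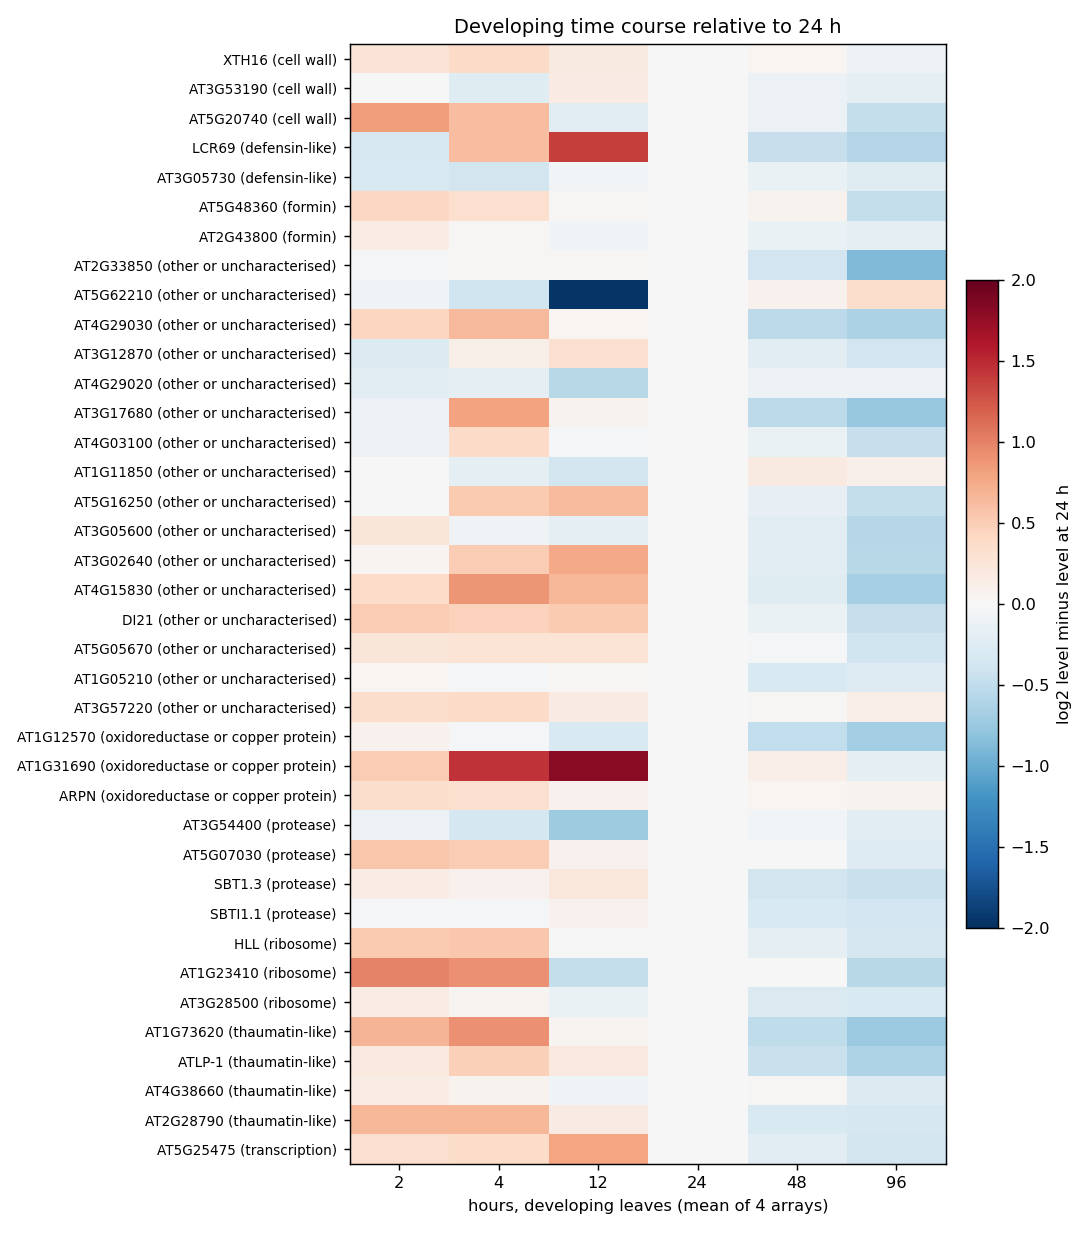
Mean level of the 38 genes in developing leaves relative to 24 h, as a difference in log2(intensity + 4), by hours (columns, 4 arrays each) and genes grouped by role (rows). Red is higher than at 24 h and blue lower: the columns left of 24 h hold both colours, whereas the column at 96 h is blue in 34 of 38 rows.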

How the data were processed

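The authors deposited 1 table of intensity values on a linear scale, made with MAS5 per the submitters' processing notes (settings not given in the sources used here), with no detection calls. Every array had the same mean after trimming 2% of probe sets at each end. Values were used as log2(intensity + 4), and no sample column was left unused. The members and gene lists were chosen with earlier results of these data known. For the tests, 64 AFFX controls and probe sets with a mean log2 under the 40th percentile (4.97) were left out, and 13648 remained. The 7 groups entered 1 limma 3.58.1 fit (R 4.3.3) with an intensity trend and Benjamini-Hochberg adjustment at 0.05. The fit was tested on simulated data. The number of arrays limits the precision.

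Gene names came from the platform annotation (13513 probe sets with 1 gene, 503 with several, 8730 with none). All 38 genes matched a RefSeq entry, used for names and neighbours only, and promoter sequences were not analysed here. The text describes all 38 genes except 1, whose result is not reported here. Values on every array at 24 h are given for the largest differences and for genes with a role, and for others where a comparison of 2 times called them. Alternatives changed the pseudocount, normalization, filter, variance trend, array weights, replicate block, arrays in the fit, RNA quality covariates and the rule.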

Additional observations from a re-analysis of the deposited data

Results flagged for a closer look

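In 14 of 228 groups of 4 developing arrays (38 genes at 6 times), 1 array stood apart from the other 3 by Dixon's test, and chance alone flags about 1 in 20 groups. At 12 h replicate 1, AT5G62210 read 5.91 against 6.92 to 7.01 in the others, XTH16 read 9.01 against 8.26 to 8.30, and AT3G57220 read 6.41 against 6.93 to 7.004. The falls of AT5G62210 and the flat course of XTH16 at 12 h thus include an array unlike the others. At 12 h AT4G29020 also had a low array (replicate 4, 10.53) and so did ARPN (replicate 3, 7.67). At 2 h replicate 1, AT1G73620 read 8.003 and AT5G05670 read 6.62, both below the others. At 4 h AT5G07030 had a high array (replicate 2, 9.51) and HLL a low one (replicate 3, 6.77). At 24 h replicate 4, AT3G05600 read 6.54 and ARPN 7.19, and at 24 h replicate 1 AT5G05670 read 6.19, all below the others. At 48 h AT3G28500 had a high array (replicate 1, 8.77) and ATLP-1 a low one (replicate 2, 7.74).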

How the results depend on the processing

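Of 43 calls of single genes in the 5 time comparisons, each refitted under 11 other settings and without each of 26 arrays, 1495 of 1591 refits kept direction and threshold, 96 lost the threshold and 0 changed direction. Calls lower at 96 h than at 24 h numbered 11 to 22 (16 as reported), with 0 higher under any setting. Leaving out 1 array at a time gave 3 to 6 calls for 4 h against 2 h, 13 to 17 for 12 h, 6 to 12 for 24 h, 11 to 18 for 96 h against 24 h and 27 to 32 among the 6 times. For 48 h against 24 h it gave 0 to 1, with 1 call without 2 h replicate 2, 24 h replicate 4, mature replicate 1 or mature replicate 2. That comparison also gave 1 call with a pseudocount of 16, 4 with array weights, 1 with developing arrays only and 2 with the actin ratio as a covariate. With the replicate number as a block in the developing arrays it gave 3, 24 h against 2 h gave 13, and 96 h against 24 h gave 22. Whether equal replicate numbers mark paired arrays is not known. In 0 of 15 pairs of times were all same-number correlations over 0.1 (-0.15 to 0.38). In some pairs, such as 4 h with 12 h (0.094 to 0.38), all were above 0, so pairing was neither shown nor excluded. The cause of the added calls was not tested.

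The rule took 15 genes with a pseudocount of 16, 59 with a difference of at least 2, 16 with at least 3 and 21 with developing means of at least 7, by construction of these limits, and 36 to 40 without 1 array. The median difference between mature and developing leaves at 24 h was -2.87 with a pseudocount of 16, and -3.47 to -3.33 without 1 array. Mature levels rest on 2 arrays with no detection calls, so low mature readings are not bounds.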
